A study of Mus musculus with 18 samples.

Results

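Fatty acid oxidation genes and genes known to respond to the peroxisome proliferator-activated receptors (PPARs) were followed in mouse retina and in the joined retinal pigment epithelium and choroid (RPE/choroid). The 34 genes were chosen by symbol, and all 34 were found in the gene tables of both tissues among 22558 genes. Retina and RPE/choroid came from mice at postnatal day 30 on a mixed 129SV and C57BL/6 background. The mice were wild type, Abca4-/- (knockout) or homozygous for an Abca4 allele carrying L541P and A1038V (knock-in), with 3 libraries for each genotype in each tissue, 18 in all. Abca4 encodes the photoreceptor transporter that clears retinoid products of vision, and the labels name no other allele or treatment. Levels are in FPKM, fragments scaled to transcript length and library size, so that they compare genes per length. Differences are on the log2 scale from the fitted counts unless a fold is named, and a test is passed where the adjusted p is under 0.05. Libraries carry the number 0, 1 or 2 of the tables. Whether each came from its own mouse is not stated, and the spread behind the p-values may therefore be technical in part or, in some groups, in full. By Xist and Ddx3y, wild-type retina, knockout retina and knock-in RPE/choroid held male and female libraries, so these groups came from more than 1 mouse.

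Fatty acids are brought into the cell, bound, and activated to acyl-CoA, and the carnitine shuttle carries the acyl group into mitochondria, where dehydrogenases, hydratases and thiolases shorten it by repeated rounds of beta-oxidation. Electrons from the dehydrogenases pass through the electron transfer flavoprotein to the respiratory chain, and peroxisomes shorten chains that mitochondria handle poorly. PPARs are nuclear receptors that bind DNA with RXR as partner and, with a fatty acid or other ligand, raise the transcription of many of these genes. In the outer retina, photoreceptors burn fatty acids beside glucose, and the pigment epithelium oxidises the lipid of shed outer segments.

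The response element of PPARs is a direct repeat of the hexamer AGGTCA with 1 base between the copies. RefSeq promoter windows of the GRCm38.p6 build, from 250 bases before to 50 bases after a start site, were found for 28 of the 34 genes, 32 windows in all. None was in the table for Angptl4, Cyp4a14, Cyp4a10, Acaa2, Decr1 and Cpt1b. With up to 2 mismatches on either strand, the repeat was found in the windows of 5 genes, Acox2, Etfa, Plin2, Slc25a20 and Ucp3. This was 15.6% of the members' windows, against 3.86% of 32851 windows of the same length in the table. The hexamer alone was in 6 member windows (18.8%, against 16.3% of all windows). A match describes letters and no binding was measured. Of these genes, 3 are shown, up to 20 bases after the start, with the match in capitals: Slc25a20 because it was the 1 member called by edgeR between genotypes, and Plin2 and Ucp3 because both are known PPAR-responsive genes. The Slc25a20 window is chr9:108661886-108662155 on the + strand, that of Plin2 chr4:86670040-86670309 on the - strand, and that of Ucp3 chr7:100472741-100473010 on the + strand.
Slc25a20: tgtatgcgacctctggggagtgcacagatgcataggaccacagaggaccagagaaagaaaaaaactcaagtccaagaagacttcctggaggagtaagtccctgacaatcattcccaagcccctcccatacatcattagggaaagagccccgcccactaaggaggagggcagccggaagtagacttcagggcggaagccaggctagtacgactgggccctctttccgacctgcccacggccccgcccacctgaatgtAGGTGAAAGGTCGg
Plin2: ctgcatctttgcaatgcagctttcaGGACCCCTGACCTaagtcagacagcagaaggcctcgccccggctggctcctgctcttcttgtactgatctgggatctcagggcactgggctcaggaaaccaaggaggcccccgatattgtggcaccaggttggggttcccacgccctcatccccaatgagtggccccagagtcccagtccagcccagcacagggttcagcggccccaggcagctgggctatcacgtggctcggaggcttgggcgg
Ucp3: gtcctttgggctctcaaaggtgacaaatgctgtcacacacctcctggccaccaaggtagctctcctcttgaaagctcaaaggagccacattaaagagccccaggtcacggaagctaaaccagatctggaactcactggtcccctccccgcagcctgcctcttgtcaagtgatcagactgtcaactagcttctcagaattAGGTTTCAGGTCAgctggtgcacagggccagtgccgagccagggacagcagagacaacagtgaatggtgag
The match in Slc25a20 began at position +7, with the start base counted as +1. In Plin2 it lay on the opposite strand and in Ucp3 on the same strand, with its first base at -225 and -51.

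Library depth ran from 11553291 to 23579152 fragments in retina and from 14621635 to 30048059 in RPE/choroid. Abca4 fell in knockout retina, as its genotype label says, from 282, 251 and 228 FPKM in wild type to 81.8, 80.3 and 73.9 FPKM (log2 difference -1.68, SE 0.08, adjusted p = 4.32e-08), and fragments of the gene thus remained. In RPE/choroid Abca4 was at 26.5, 25.6 and 26.2 FPKM in knockout and 35.4, 38.4 and 59.5 FPKM in wild type, with no overlap, and the difference of -0.79 did not pass (adjusted p = 0.102). Defining markers of the labelled tissues were present: a sum over 10 rod markers of 22426 to 25444 FPKM in retina and Rpe65 at 844 to 1602 FPKM in RPE/choroid. Other tissue was carried along unevenly. The summed level of 8 lens markers ran from 26.1 to 11982 FPKM among retinal libraries, highest in knockout libraries 1 and 2 and in knock-in library 0. The sum of the rod markers in RPE/choroid was 2308 FPKM in wild-type library 2 and 113 to 450 FPKM in the other 8 libraries. All RPE/choroid libraries held skeletal muscle RNA, with a sum over 14 markers of 5125 to 10341 FPKM against 36.3 to 44.97 FPKM in retina. In such bulk samples, fewer cells of a type and less RNA per cell cannot be told apart.

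The first question was whether the target genes follow the Ppara transcript, which was raised in knockout retina. Ppara (chromosome 15, 85565993 to 85637281 in mm9) stood at 0.121, 0.155 and 0.126 FPKM in wild-type retina, at 0.148, 0.158 and 0.185 FPKM in knock-in and at 2.82, 2.91 and 2.496 FPKM in knockout. The knockout libraries stood far above all others, and wild type and knock-in lay within a narrow band. The difference between knockout and wild type was 19.96-fold (log2 4.32, 95% interval 3.98 to 4.66, edgeR quasi-likelihood, Benjamini-Hochberg adjusted p = 2.29e-09). It rested on 421, 471 and 229 fragments in knockout and 14, 16 and 11 in wild type. In the transcript tables, most of this signal was assigned to the shorter of 2 listed transcripts (7207 bases), at 2.57, 2.68 and 2.496 FPKM in knockout retina, while the longer (7445 bases) stood at 0.251, 0.230 and 5.2e-05 FPKM. The assignment between these transcripts is an estimate, and in wild-type retina it switched from library to library. Which exons the fragments cover was not analysed here. RPE/choroid, the tissue rich in Ppara, had wild-type Ppara at 2.31 to 2.65 FPKM and Rpe65, an RPE marker, at a mean of 1181 FPKM. Knockout retina had Rpe65 at a mean of 8.47 FPKM. The FPKM of each tissue were scaled separately, and the part of RPE RNA in the Ppara level of knockout retina was not tested.

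The levels of the target genes did not move with it beyond the threshold. Of the 34 members, 30 passed the filter on low counts in retina, and 0 of the 30 passed the test in knockout against wild-type retina by edgeR, where 0.98% of all 14699 genes tested did. DESeq2 also called 0, and 2.17% of all genes. When a library was left out, calls over all genes ran from 53 (0.356%, without wild-type library 1) to 253 (1.71%, without knockout library 0), and those among members stayed at 0. At an unadjusted p under 0.05 there were 2 members, Acsl1 and Etfb, while 12.5% of all genes reached that level. The median log2 difference of the 30 was 0.07, against -0.00317 over all genes. It ran from -0.42 (Acot2) to 0.38 (Ucp2), with 18 above 0 and 12 below. All knockout libraries stood above all wild-type libraries for 3 members, Acsl1, Cpt2 and Etfb, where 6.66% of all genes did so, and 0 members had all knockout libraries below (5.17% of all genes). That count is in FPKM. In fragments per library depth, the groups of Acsl1 and Cpt2 overlapped. On that scale 1 member stood above, Etfb (6.34% of all genes), and 1 below, Acot2 (10.5% of all genes). The filter left out Acox2, Ucp3, Cyp4a10 and Cyp4a14, which had at most 10 fragments in any retinal library.

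Per length, the most abundant members in retina were Acadm at 50.7 ± 2.3 FPKM (SD over 9 libraries), Cpt1a at 44.1 ± 3.4 and Hadhb at 43.7 ± 2.7. Cpt1a and Hadhb did not differ beyond their spread. Acadvl followed at 37.8 ± 2.4 FPKM and Acaa1a, a peroxisomal thiolase, at 35.7 ± 4.0, and these 2 overlapped as well. At the other end of the 30 members past the filter stood Angptl4 at 0.635 ± 0.165 FPKM, Acaa1b at 0.377 ± 0.184 and Pdk4 at 0.151 ± 0.080. Pdk4 rested on 5 to 14 fragments in a retinal library.

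How large a rise these data leave room for can be read from the intervals. For 24 of the 30 members the 95% interval of the difference lay wholly under a 1.5-fold rise, which held for 84.5% of all genes. The 6 members whose interval reached beyond it were Ucp2, Acaa2, Angptl4, Cpt1b, Pdk4 and Acaa1b, of which Acaa2 averaged 14.3 FPKM in retina and the others at most 1.79 FPKM. For 23 of the 30 the interval lay within 1.5-fold in either direction (76.1% of all genes). A miss of the threshold does not show that the levels were equal.

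**Figure D1:**
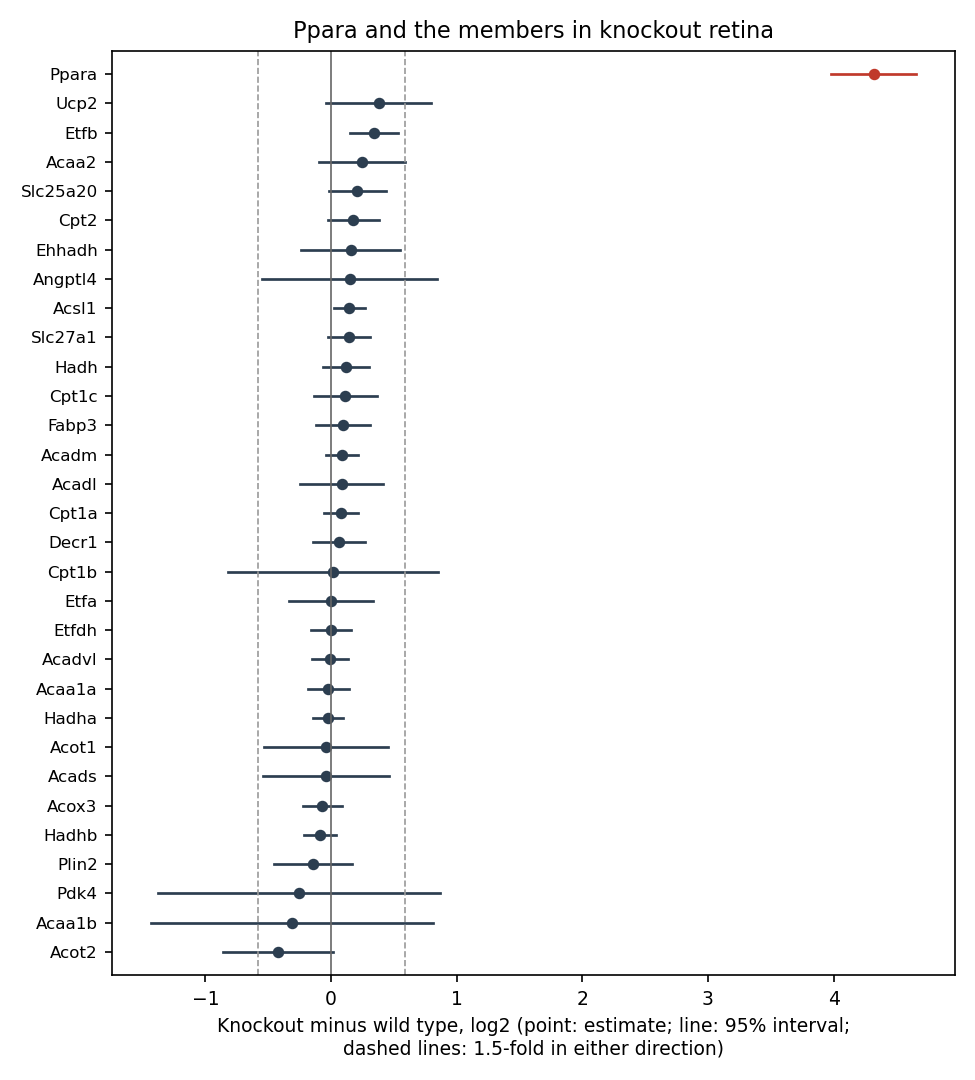
Difference between knockout and wild-type retina on the log2 scale for Ppara and the 30 members that passed the filter, with 95% intervals. Ppara lies at 4.32, while the members lie between -0.42 and 0.38 and most intervals fall inside the dashed lines at 1.5-fold.

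The members best known for rising with PPAR ligands had no called difference in knockout retina. Pdk4, the kinase that turns off pyruvate dehydrogenase and spares glucose, was at 0.102, 0.164 and 0.136 FPKM in knockout and 0.0922, 0.110 and 0.319 FPKM in wild type. These groups overlapped, and with 5 to 12 fragments a library the interval was wide (log2 -0.26, -1.38 to 0.87). Plin2, which coats lipid droplets, was at 3.94, 4.37 and 4.03 FPKM in knockout and 4.85, 4.25 and 4.46 FPKM in wild type (log2 -0.14, interval -0.46 to 0.17). Angptl4, a secreted inhibitor of lipoprotein lipase, was at 0.488, 1.00 and 0.617 FPKM against 0.640, 0.730 and 0.569 FPKM. Only knockout library 1 stood above the wild-type range. Ucp2, a carrier of the inner mitochondrial membrane, was at 1.84, 2.49 and 2.18 FPKM against 1.44, 1.55 and 1.91 FPKM. The groups overlapped slightly, and its difference of 0.38 was not past the threshold (adjusted p = 0.442). Cyp4a10, an omega-hydroxylase that liver raises strongly with PPARα ligands, had 0 fragments in all 9 retinal libraries, and its neighbour Cyp4a14 had 0 or 1.

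In the carnitine shuttle, Cpt1a, the outer membrane transferase that sets the pace of import, was at 48.9, 46.9 and 42.3 FPKM in knockout retina and 47.0, 43.9 and 39.7 FPKM in wild type. The groups overlapped, and the interval of the difference was -0.05 to 0.22. Slc25a20, which exchanges acylcarnitine for carnitine across the inner membrane, was at 8.65, 9.22 and 7.56 FPKM against 7.19, 6.95 and 7.79 FPKM (log2 0.21, adjusted p = 0.431). Cpt2, which returns the acyl group to CoA inside, was at 10.02, 9.04 and 9.79 FPKM against 8.83, 7.84 and 8.61 FPKM. Its knockout libraries all stood higher in FPKM, and the fitted difference of 1.13-fold was not past the threshold (adjusted p = 0.467). The 5 genes of the shuttle had differences from 0.01 to 0.21.

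No mitochondrial beta-oxidation enzyme passed the test in knockout retina. Acadm, the dehydrogenase of medium chains and the most abundant member in retina per length, was at 54.7, 50.2 and 53.2 FPKM in knockout and 49.8, 50.4 and 49.5 FPKM in wild type. Acadvl, for very long chains, was at 35.6, 39.9 and 35.9 FPKM against 40.3, 37.2 and 35.6 FPKM. Hadha and Hadhb, the subunits of the trifunctional protein, overlapped between the groups too. The 9 enzymes had differences from -0.09 (Hadhb) to 0.25 (Acaa2, a thiolase). Across all 9 retinal libraries the coefficient of variation was 4.57% for Acadm, 5.00% for Hadha, 6.12% for Hadhb and 19.0% for Acaa2.

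Of the electron transfer flavoprotein genes, Etfb had the largest difference. Etfb, the beta subunit (chromosome 7, 50699512 to 50713152 in mm9), was at 26.5, 29.0 and 26.2 FPKM in knockout retina and 20.9, 24.4 and 19.4 FPKM in wild type. All knockout libraries stood above all wild-type libraries, by 1.27-fold (log2 0.34, interval 0.15 to 0.53), and the adjusted p of 0.107 missed the threshold (0.0916 to 0.373 over the alternatives). Etfa, the partner subunit, and Etfdh, the dehydrogenase that receives the electrons, had differences of 0.000714 and -0.000778. In RPE/choroid, Etfb was at 127, 110 and 82.8 FPKM in knockout and 129, 120 and 97.5 FPKM in wild type. The knockout effect on Etfb in RPE/choroid minus that in retina was -0.45 (interval -0.66 to -0.25, adjusted p = 0.0814 by edgeR). DESeq2 called this difference (adjusted p = 0.00799, the lowest of alternatives that reached 0.195), in a test that called 1.65% of all genes. So did edgeR without RPE/choroid wild-type library 2, the library with rod RNA (adjusted p = 0.0369), where calls over all genes went from 22 to 337 (2.06%). The FPKM of Etfb within a genotype of RPE/choroid did not follow the fragments that the tests used: per 1000000 fragments of the library it was at 93.4, 95.2 and 96.2 in wild type and 92.5, 88.6 and 84.4 in knockout.

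No uptake or activation gene passed in knockout retina: Slc27a1, an importer at the membrane, Fabp3, a binding protein of the cytosol, and Acsl1, an acyl-CoA synthetase, had differences from 0.10 to 0.15. Acsl1 was at 32.4, 30.7 and 30.4 FPKM in knockout against 27.3, 29.1 and 28.8 FPKM in wild type, higher in all knockout libraries on this scale, with an adjusted p of 0.295. Among peroxisomal enzymes, the bifunctional enzyme Ehhadh was at 2.10, 2.30 and 1.70 FPKM against 2.07, 1.94 and 1.40 FPKM, and these overlapped. Of the thioesterases, which release free fatty acid from acyl-CoA, Acot2 was at 1.70, 1.91 and 1.73 FPKM against 2.80, 2.65 and 1.78 FPKM (log2 -0.42, adjusted p = 0.421). Some pairs share sequence: 21.6% of the 100-base stretches of Acaa1a are also in Acaa1b, and 16.5% of those of Acot1 are in Acot2, so the division of fragments within these pairs is uncertain.

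Further genes of the pathway were read from 5 companion lists. In knockout against wild-type retina, 0 of 23 other mitochondrial oxidation genes, 0 of 21 peroxisomal genes and 0 of 18 genes of ketone bodies and other PPAR targets passed the test by edgeR. Of all genes 0.98% passed it. At an unadjusted p under 0.05 there were 1, 5 and 4 (12.5% of all genes). DESeq2, which called 2.17% of all genes, called 0, 0 and 2. Slc16a1, a carrier of lactate and ketone bodies, was among the last, at 90.7, 88.9 and 93.5 FPKM in knockout against 93.8, 98.5 and 115 FPKM in wild type (log2 -0.21, adjusted p = 0.0312 by DESeq2, 0.152 by edgeR). Of 24 lipid uptake and storage genes, 1 fell and 0 rose. Cd36, a fatty acid receptor at the cell surface, fell to 0.656, 0.660 and 0.570 FPKM from 1.23, 1.19 and 1.95 FPKM (log2 -1.17, SE 0.20, adjusted p = 0.0112). Its knockout libraries all lay below the wild-type ones, and limma on log2(FPKM + 1) gave an adjusted p of 0.188. DESeq2 called 1 more, Plin4, a coat protein of lipid droplets, at 0.705, 2.23 and 1.62 FPKM against 0.779, 0.841 and 0.631 FPKM (log2 1.04, adjusted p = 0.0487 by DESeq2, 0.346 by edgeR). Of 21 receptors and coactivators 1 rose, Ppara, and 0 fell. Ppard was at 7.65, 7.78 and 5.55 FPKM in knockout against 7.72, 7.45 and 6.40 FPKM, the most abundant PPAR transcript in retina per length, and Pparg did not exceed 0.0802 FPKM in retina.

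RPE markers were higher in knockout retina for 4 of 12 genes and lower for 0, where 0.98% of all genes passed the test. Rpe65, the isomerase of the visual cycle, was at 10.7, 6.44 and 8.27 FPKM in knockout against 2.76, 2.65 and 3.56 FPKM in wild type. The summed level of the 12 was 421 to 517 FPKM in knockout and 449 to 463 FPKM in wild type. Rpe65 and Rgr, the latter at 6.06, 4.83 and 5.97 FPKM in wild type, made up little of this sum. The sum therefore does not show how RPE RNA differed between the genotypes. Over the 12, the median difference in retina was 0.57 in knockout, with 7 at an unadjusted p under 0.05 (12.5% of all genes). In knock-in it was 0.52, with 6 at that level (8.5% of all genes) and 0 called. No RPE or lens marker was at 0 in all libraries of a retinal group, and the part of RPE or lens RNA in the members' retinal values was not tested.

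The knock-in retina was set against wild type, with the same wild-type libraries as above. By edgeR 0 of 30 members passed the test (0.265% of all genes tested did), and DESeq2 called 0 (0.805% of all genes). At an unadjusted p under 0.05 there were 3, Slc27a1, Slc25a20 and Hadhb, with differences of 0.25, -0.27 and -0.14 (8.5% of all genes). In FPKM, Slc25a20 was the 1 member with all knock-in libraries below all wild-type libraries (3.61% of all genes), at 6.09, 6.02 and 6.11 FPKM. By fragments per library depth, Hadhb and Slc25a20 stood below (6.44% of all genes) and Slc27a1 above (8.65% of all genes). The median difference of the 30 was 0.02, against 0.000653 over all genes.

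Between knock-in and knockout retina, 1 of 30 members passed the test, where 1.26% of all genes did, and 0.578% were lower in knock-in. Slc25a20 (chromosome 9, 108564428 to 108586972 in mm9), the carnitine and acylcarnitine carrier whose window is printed above, was that member. Knock-in libraries lay within 6.02 to 6.11 FPKM and the knockout libraries at 7.56 to 9.22 FPKM, and wild type at 6.95 to 7.79 FPKM. The difference was 1.39-fold (log2 -0.48, SE 0.10, adjusted p = 0.0353 by edgeR, 0.0153 by DESeq2), on 201 to 248 fragments in knock-in and 161 to 349 in knockout. The call was lost without any 1 of knock-in libraries 0, 1 and 2 or knockout libraries 0 and 1, with adjusted p from 0.0739 to 0.187, and by limma on log2(FPKM + 1) (0.149). Calls over all genes were 103 to 202 in those fits and 20 by limma, in place of 185. The 3 knock-in libraries were female by Xist and Ddx3y, as were 2 of the 3 knockout libraries and 1 of the 3 wild-type libraries. With sex as a term Slc25a20 stayed past the threshold (0.0329) and Ucp2 joined it (0.0196), while calls over all genes went from 185 to 289 (1.97%).

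Other members were lower in knock-in without passing the test. All knock-in libraries stood below all knockout libraries for 5 members, Acsl1, Cpt2, Etfb, Slc25a20 and Ucp2 (5.08% of all genes), and above for 0 (5.69% of all genes), in FPKM. In fragments per library depth, those of Acsl1 and Cpt2 overlapped. On that scale 3 members stood below, Etfb, Slc25a20 and Ucp2 (4.25% of all genes), and 2 above, Acox3 and Slc27a1 (12.2% of all genes). At an unadjusted p under 0.05 there were 4, Acaa2, Etfb, Slc25a20 and Ucp2 (11.7% of all genes). Acaa2 was at 11.7, 9.71 and 14.7 FPKM in knock-in against 15.9, 19.5 and 14.7 FPKM in knockout. These groups met at 14.7 FPKM, and the difference of -0.47 was not past the threshold (adjusted p = 0.211). Without knock-in library 2, Acaa2 passed (adjusted p = 0.0311) and Slc25a20 did not. In the authors' deposited table the q-value for knockout and knock-in retina was 0.0419 for Acaa2 and 0.0671 for Slc25a20, and Acaa2 was the 1 member under 0.05 of 28 tested there, where 2.34% of genes were under it. Of 21 peroxisomal companion genes, 1 was lower in knock-in (0.578% of all genes). This was Acoxl, a relative of the peroxisomal oxidases, at 0.212, 0.271 and 0.358 FPKM against 0.790, 0.822 and 0.826 FPKM (log2 -1.53, adjusted p = 0.0103, and 0.0524 without knock-in library 1). Wild-type Acoxl lay between, at 0.465, 0.433 and 0.676 FPKM, and edgeR called neither genotype against it. Ivd, the dehydrogenase of leucine breakdown, was the closest of the other mitochondrial genes (log2 0.32, adjusted p = 0.0964). The median of the 30 members was -0.03, against -0.00232 over all genes.

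**Figure D2:**
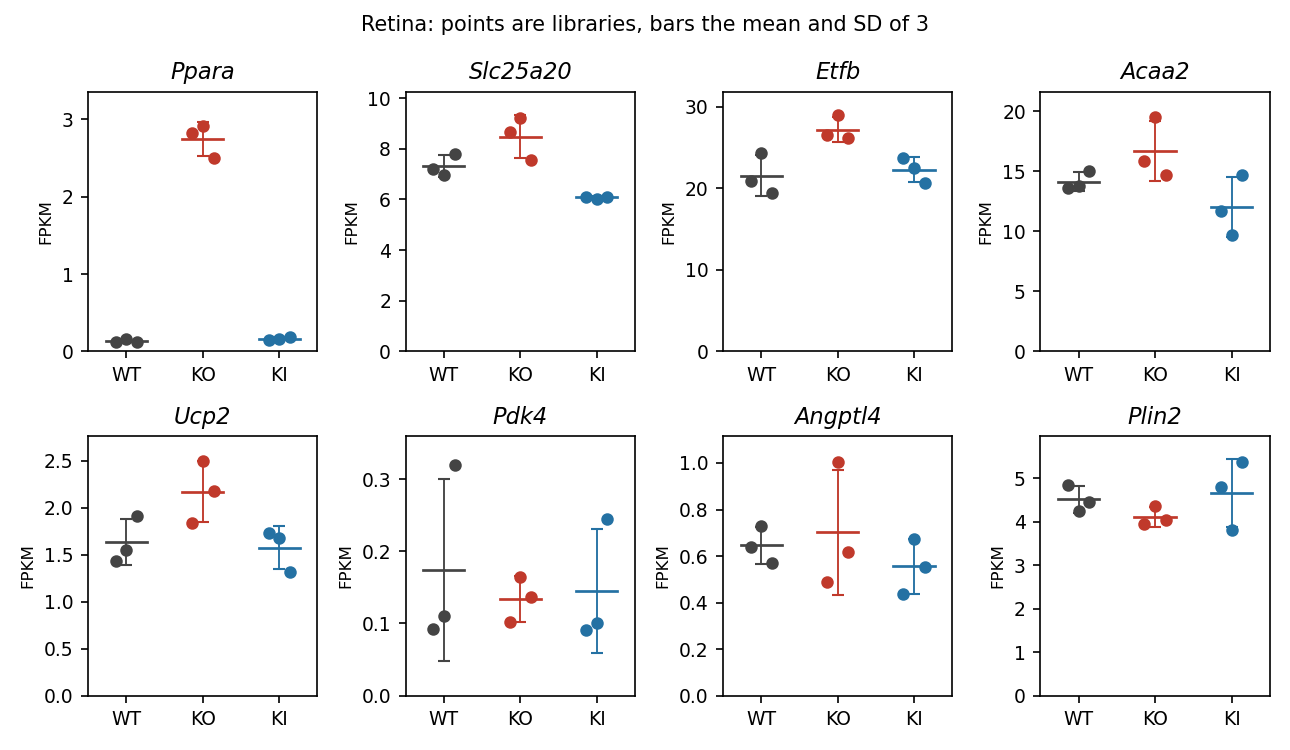
FPKM of Ppara and 7 members in each retinal library by genotype (WT wild type, KO knockout, KI knock-in), with the mean and SD of 3. Ppara separates knockout from the rest, Slc25a20 is lowest in knock-in, and Pdk4, Angptl4 and Plin2 overlap between the genotypes.

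In wild-type mice, most members were higher in RPE/choroid than in retina. Of 32 members that passed the filter in the joint fit, 31 passed the test, 30 of them higher in RPE/choroid and 1 lower. Of all 16222 genes 85.9% passed, 44.0% higher and 41.9% lower. The median log2 difference of the 32 was 1.83, against 0.04 over all genes. Acox2 and Ucp3 passed the filter through the RPE/choroid libraries alone, so their places in this count follow from the filter. Of the 30 members that also passed the filter in retina, 28 were higher and 1 lower, with a median of 1.67. The FPKM tables of the tissues were scaled separately, and the test used the unscaled fragment counts of both.

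Of the 30, Pdk4 and Ucp2, both PPAR-responsive, were furthest apart. Pdk4 was at 0.0922, 0.110 and 0.319 FPKM in wild-type retina and 6.65, 9.67 and 10.1 FPKM in RPE/choroid, 52.1-fold higher (log2 5.70, SE 0.57, adjusted p = 3.05e-07). Ucp2 was at 1.44 to 1.91 FPKM against 63.9 to 77.0 FPKM (log2 5.39), and Angptl4 at 0.569 to 0.730 FPKM against 8.47 to 12.5 FPKM (log2 4.13). Plin2 was at 4.25 to 4.85 FPKM against 33.4 to 38.0 FPKM (log2 3.08). Ucp3, the uncoupling protein of muscle, had 0 to 4 fragments in wild-type retina and stood at 2.78, 4.09 and 3.73 FPKM in RPE/choroid. None of these groups overlapped.

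The mitochondrial enzymes were all higher in RPE/choroid, by unequal amounts. Among the acyl-CoA dehydrogenases, Acadl, for long chains, was 10.8-fold higher and Acads, for short chains, 9.47-fold higher. Acadm and Acadvl, the abundant forms of retina, were 1.73-fold and 1.88-fold higher. Acaa2 was 9.67-fold higher and Hadh, the short-chain hydroxyacyl dehydrogenase, 5.78-fold higher. Hadha and Hadhb were close to each other, at 2.62-fold and 2.80-fold. Retinal wild-type values were 4.34, 4.36 and 5.02 FPKM for Acadl and 1.93, 2.40 and 2.40 FPKM for Acads, and those in RPE/choroid were 47.9, 53.9 and 49.1 FPKM and 21.5, 18.3 and 14.2 FPKM. Decr1, the reductase for unsaturated chains, was 5.35-fold higher, from 5.24, 4.79 and 6.81 FPKM to 27.1, 33.2 and 38.4 FPKM. The flavoprotein genes Etfa, Etfb and Etfdh were 2.36-fold, 6.55-fold and 3.25-fold higher.

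The 3 forms of carnitine palmitoyltransferase 1 separated by tissue. Cpt1a, the widespread form, was at 39.7 to 47.0 FPKM in wild-type retina and 47.7 to 55.4 FPKM in RPE/choroid, 1.24-fold higher (adjusted p = 0.000451). Cpt1b, the muscle form, was at 0.971 to 1.46 FPKM against 9.26 to 11.9 FPKM, 9.98-fold higher. Cpt1c, the neuronal form of the endoplasmic reticulum, was the 1 member lower in RPE/choroid, at 3.52 to 4.47 FPKM against 8.65 to 10.99 FPKM, 2.09-fold less. The locus of Cpt1b overlaps that of Chkb and of a joined Chkb transcript, and whether the counting used the strand is not given in the sources used here, so part of its fragments may belong to the neighbour.

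The peroxisomal members had a lower median difference, 0.39. Acox3, an oxidase of branched chains, was at 8.05 to 9.86 FPKM in retina and 8.89 to 10.3 FPKM in RPE/choroid. These overlapped, and its difference of 0.16 (adjusted p = 0.0199) was lost without retinal wild-type library 0 or 2 or RPE/choroid wild-type library 0 (0.0776 to 0.185). Acaa1a, a peroxisomal thiolase, was 1.31-fold higher, and Acaa1b at 0.239 to 0.725 FPKM against 0.250 to 0.367 FPKM did not pass (adjusted p = 0.830). Of the companion lists, 12 of 21 peroxisomal genes were higher in RPE/choroid and 5 lower, and 22 of 24 other mitochondrial genes higher and 1 lower. Of 26 uptake and storage genes 17 were higher and 3 lower, of 24 ketone body and other target genes 21 and 1, and of 22 receptors and coactivators 7 and 12. Ppara was 18.01-fold higher in RPE/choroid than in wild-type retina (log2 4.17), at 2.31, 2.42 and 2.65 FPKM. Knockout retina, at 2.496 to 2.91 FPKM, and wild-type RPE/choroid thus had Ppara at like FPKM, each in its own tissue's scale. The members' levels were not tested between these groups.

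Markers of other cells stood beside these differences. Of 14 skeletal muscle markers all 14 were higher in RPE/choroid, with Acta1, the actin of skeletal muscle, at 775 to 1145 FPKM against 1.57 to 1.60 FPKM. Of 12 RPE markers 11 were higher, and of 8 endothelial markers 7. Of 9 adipocyte markers 4 of the 7 tested were higher and 1 lower. Adipocyte markers summed to 29.4 to 39.9 FPKM in wild-type RPE/choroid and 4.69 to 5.45 FPKM in retina, with the adipocyte hormone Adipoq at 0.446 to 0.498 FPKM and at 0 in all 3 retinal libraries. The part of each cell type in the members' levels was not tested.

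**Figure D3:**
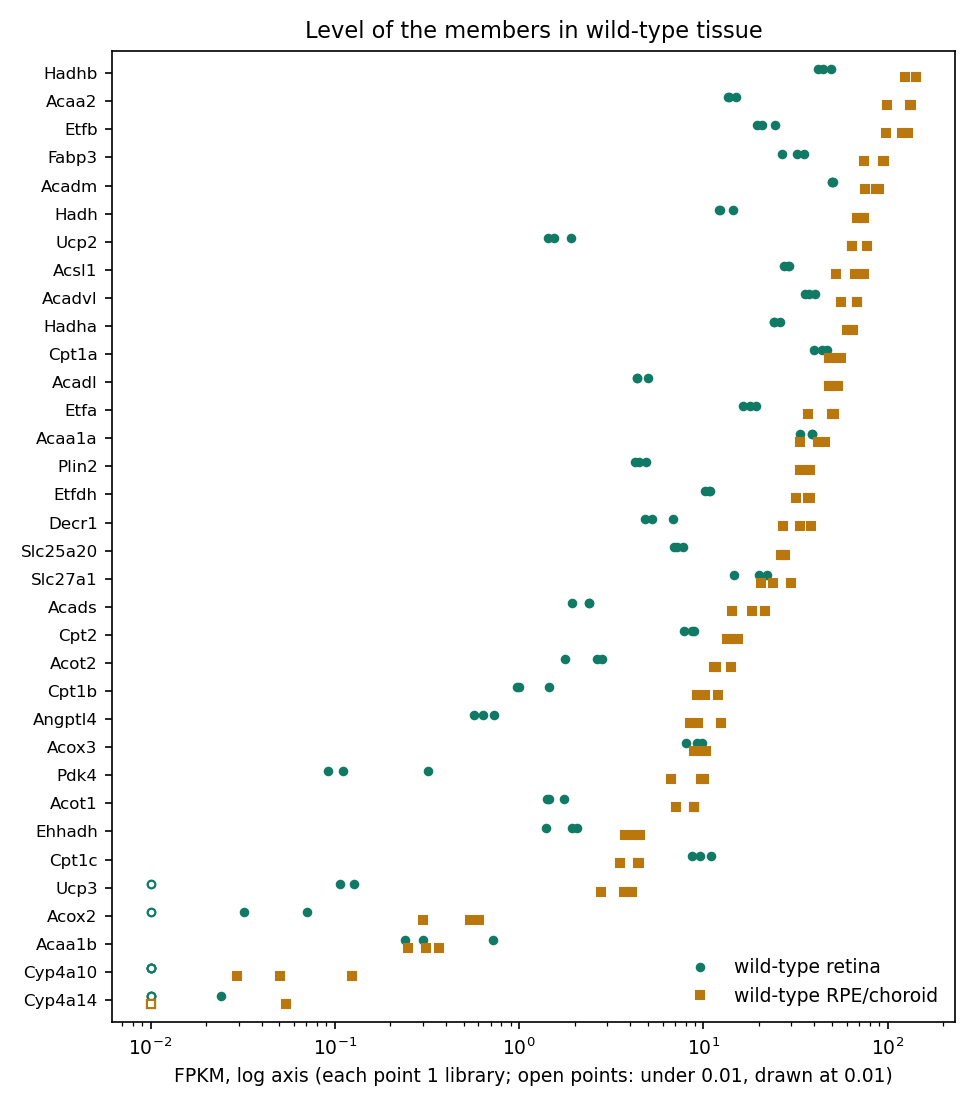
FPKM on a log axis of the 34 members in the 3 wild-type libraries of each tissue, ordered by the mean in RPE/choroid, with open points under 0.01 FPKM drawn at 0.01. Most members lie higher in RPE/choroid, Pdk4 and Ucp2 by wide gaps, Cpt1c lies lower, and Acox3, Acaa1a and Cpt1a lie close.

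Within RPE/choroid, Hadhb was the most abundant member at 138 ± 16 FPKM (SD over 9 libraries), then Acaa2 at 125 ± 12 and Etfb at 110 ± 16, each within the spread of its neighbour. Acadm followed at 88.4 ± 7.3 FPKM, Fabp3 at 82.4 ± 11.4 and Ucp2 at 73.7 ± 8.5. Of the 32 members past the filter, the rarest were Acox2 at 0.470 ± 0.095 FPKM and Acaa1b at 0.414 ± 0.135. Cyp4a10 and Cyp4a14, which the filter left out, were rarer still and had at most 8 fragments in a library. Uptake genes were higher than in retina too, Fabp3 by 3.12-fold, Acsl1 by 2.35-fold and Slc27a1 by 1.58-fold. The thioesterases Acot1 and Acot2 were 6.22-fold and 5.78-fold higher.

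In RPE/choroid, the knockout was compared with wild type in the same way, with 32 members past the filter. By edgeR 0 of 32 passed the test, where 0.472% of all 15454 genes tested did. At an unadjusted p under 0.05 there were 3, Cpt1a, Acaa1b and Fabp3 (15.5% of all genes). DESeq2 called 1, Cpt1a, and 3.58% of all genes. The median difference was 0.05, against -0.01 over all genes. In FPKM, all knockout libraries stood above all wild-type libraries for 5 members, Acaa1b, Acox3, Angptl4, Cpt1a and Cpt1b (5.56% of all genes). They stood below for 0 (4.87% of all genes). By fragments per library depth, 6 stood above (12.8% of all genes) and 4 below, Acaa1a, Acads, Etfb and Fabp3 (9.29% of all genes). Without wild-type library 2, the one with rod RNA, calls over all genes went from 73 to 462 (2.97%), and calls among members stayed at 0.

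Cpt1a (chromosome 19, 3323300 to 3385733 in mm9) was at 59.2, 63.0 and 65.2 FPKM in knockout RPE/choroid, at 47.7, 55.4 and 53.3 FPKM in wild type and at 48.7, 48.4 and 55.5 FPKM in knock-in. The knockout libraries were the highest, with no overlap. The difference from wild type was 1.18-fold (log2 0.24, interval 0.10 to 0.37, adjusted p = 0.134 by edgeR, 0.0127 by DESeq2 and up to 0.933 over the alternatives). Ppara was at 2.80, 3.12 and 3.57 FPKM in knockout and 2.31 to 2.65 FPKM in wild type, also above in all libraries (log2 0.35, adjusted p = 0.115 by edgeR, 0.0370 by DESeq2).

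Pdk4 and Angptl4 had a wide spread within knockout RPE/choroid. Pdk4 was at 7.75, 12.2 and 29.9 FPKM in knockout, 6.65, 9.67 and 10.1 FPKM in wild type and 7.28, 4.66 and 10.7 FPKM in knock-in. Knockout library 2 stood apart and library 0 lay within the wild-type range. Angptl4 was at 14.97, 12.57 and 20.09 FPKM in knockout, 9.31, 12.51 and 8.47 FPKM in wild type and 13.6, 6.45 and 7.39 FPKM in knock-in. The lowest knockout value of Angptl4 and its highest wild-type value nearly met. The differences of Pdk4 and Angptl4 from wild type, 0.85 and 0.64, did not pass (adjusted p = 0.366 and 0.359), and without knockout library 2 they were 0.30 and 0.32. Over the 6 adipocyte markers tested the median difference was 0.95, with 0 called and 2 at an unadjusted p under 0.05 (15.5% of all genes). The summed level of all 9 was 35.0, 47.1 and 38.2 FPKM in knockout libraries 0, 1 and 2. In wild type it was 39.9, 30.2 and 29.4 FPKM, and the groups overlapped. Adipoq was at 0.462, 1.19 and 1.35 FPKM in knockout and 0.491, 0.446 and 0.498 FPKM in wild type, and the part of fat in these differences was not tested. In the authors' deposited table the q-values for knockout and wild-type RPE/choroid were 0.00347 for Pdk4 and 0.0115 for Angptl4, the 2 members under 0.05 among 31 tested there, where 2.90% of genes were under it.

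Fabp3 was at 68.5, 81.8 and 71.1 FPKM in knockout RPE/choroid and 94.4, 95.1 and 73.9 FPKM in wild type. The groups overlapped in FPKM and the difference of -0.26 did not pass (adjusted p = 0.320). Over 8 markers of slow and cardiac-type muscle the median difference was -0.35, and over 14 skeletal muscle markers 0.15. Of the 8, 4 had an unadjusted p under 0.05 (15.5% of all genes), edgeR called 0 and DESeq2 3. Their sum was 617, 416 and 362 FPKM in knockout libraries 0, 1 and 2 and 570, 542 and 508 FPKM in wild type. The part of such muscle in Fabp3 was not tested. Cpt1b was at 11.99, 12.06 and 14.14 FPKM in knockout and 11.9, 10.2 and 9.26 FPKM in wild type. Its highest value, 17.7 FPKM, was in knock-in library 0, which also had the highest sum of skeletal muscle markers, 10341 FPKM. Of the companion lists, 0 of 24 other mitochondrial, 20 peroxisomal, 25 uptake and storage and 24 ketone body and other target genes and 0 of 22 receptors and coactivators passed the test by edgeR in knockout RPE/choroid. At an unadjusted p under 0.05 there were 3, 3, 2, 6 and 5 (15.5% of all genes). DESeq2, which called 3.58% of all genes, called 1, 1, 1, 3 and 2. Ech1, a dienoyl-CoA isomerase, was closest by edgeR (log2 0.42, adjusted p = 0.0512, and 0.000112 by DESeq2), at 141, 145 and 123 FPKM in knockout against 111, 106 and 82.4 FPKM in wild type. Hsd17b10, a mitochondrial dehydrogenase, had a difference of -0.25 (adjusted p = 0.107 by edgeR). Cyp4f15, another omega-hydroxylase, was at 1.85, 1.67 and 2.503 FPKM in knockout and 0.609, 1.10 and 0.671 FPKM in wild type, with no overlap (log2 1.29, adjusted p = 0.0893, and 0.00937 by DESeq2).

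Knock-in RPE/choroid did not differ from wild type past the threshold in any of 32 members, by edgeR or DESeq2, and 0 had an unadjusted p under 0.05. Over all genes 0.0647% passed by edgeR and 0.259% by DESeq2, and 5.53% had such an unadjusted p. Between knock-in and knockout, edgeR called 0 of 32 members (0.453% of all genes) and DESeq2 1, Cpt1a (1.95% of all genes). There were 3 at an unadjusted p under 0.05, Cpt1a, Angptl4 and Pdk4, with differences of -0.31, -0.83 and -1.07 (12.2% of all genes). All knock-in libraries stood below all knockout libraries for Acox3 and Cpt1a (4.68% of all genes), and above for Hadh (4.7% of all genes), in FPKM. In fragments per library depth, those of Hadh overlapped. On that scale 5 members stood below, Acox3, Angptl4, Cpt1a, Cpt2 and Hadhb (12.7% of all genes), and 1 above, Acaa1a (9.51% of all genes). In the authors' deposited table Pdk4 and Angptl4, at a q-value of 0.00347 each, were the 2 members under 0.05 among 31 tested in this comparison, where 2.36% of genes were under it. Cpt1a reached an adjusted p of 0.0737 in this comparison, and 0.0259 when only the 2 groups were fitted, where calls over all genes went from 70 to 198 (1.29%). These RPE/choroid knockout libraries are shared by these comparisons, so they are not independent of those with wild type.

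**Figure D4:**
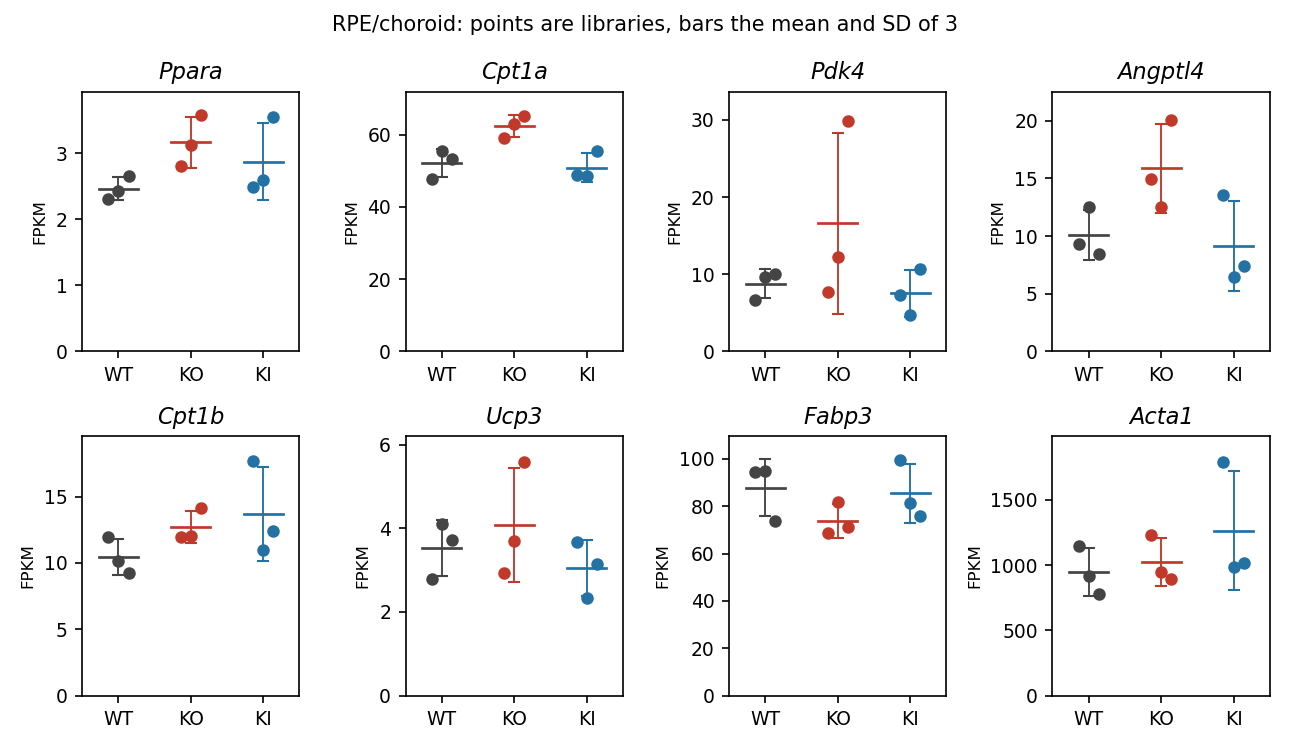
FPKM of Ppara, 6 members and the muscle marker Acta1 in each RPE/choroid library by genotype (WT wild type, KO knockout, KI knock-in), with the mean and SD of 3. Cpt1a is highest in knockout without overlap, Pdk4 and Angptl4 are highest in 1 knockout library, and Cpt1b and Acta1 are highest in the same knock-in library.

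The knockout effect was compared between tissues in 1 model over both. It differed for 0 of 32 members by edgeR, where 0.136% of all 16222 genes passed, and DESeq2 called 1, Etfb, and 1.65% of all genes. Without RPE/choroid wild-type library 2, edgeR called 2.06% of all genes and 1 member, Etfb. An unadjusted p under 0.05 was reached by 4 members, Etfb, Acot2, Acox2 and Fabp3 (12.3% of all genes), of which Acox2 had not passed the filter in retina. For Ppara the effect in RPE/choroid minus that in retina was -3.96 (adjusted p = 6.97e-10). The median over the 32 members was -0.00241, against -0.02 over all genes.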

How the data were processed

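Total RNA depleted of ribosomal RNA was sequenced as 100-base read pairs from 18 libraries, 3 for each of 3 genotypes in retina and in RPE/choroid. Per the submitters' processing notes, TopHat, Bowtie2 and Cufflinks were used with the mm9 build. The sources used here give neither the versions nor the annotation, nor whether the counting used the strand that the kit keeps. As the gene tables show, the authors deposited, per the file headers, an expected count of fragments for each gene and library before scaling, of which 98.5% in retina and 98.4% in RPE/choroid were whole numbers. The remaining values were rounded. The FPKM values, per the file headers, were scaled by the authors over the libraries of each tissue separately. The p-value and q-value of each pair of genotypes were taken as the authors deposited them. Transcript lengths are those the authors deposited. Of the gene estimates, 10 in retina and 3 in RPE/choroid are marked as failed, none of them a member.

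The members and lists were chosen with earlier results of these data known. The test was edgeR 4.0.16 (R 4.3.3) on the rounded counts, as fixed for tables with counts: filterByExpr, TMM scaling, robust quasi-likelihood fits, 1 fit for the 9 libraries of each tissue and 1 for all 18, with Benjamini-Hochberg adjustment over all genes tested and a threshold of 0.05. Intervals cover 95%. Depth was 11553291 to 23579152 fragments in retina and 14621635 to 30048059 in RPE/choroid, and the common biological coefficient of variation was 0.114 and 0.154. Named are all members, Abca4, the PPAR genes, called genes of each companion list, and otherwise those with the smallest p, and some genes of these lists are not reported here. Slc16a1, Plin4, Ech1 and the markers shown by level were picked after their values were seen. Alternatives were DESeq2 1.42.0, RLE scaling, no filter, a mean FPKM of at least 1, the replicate number as a block, a sex term, limma 3.58.1 on log2(FPKM + 1) and log2(FPKM + 0.1), only the 2 groups compared, and each library left out in turn. The scripts were tested on simulated data.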

Additional observations from a re-analysis of the deposited data

Results flagged for a closer look

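The effect of the knockout was larger in retina than in RPE/choroid for 3 of the genes named here, by an edgeR test of the difference between the tissues, and none of the 3 is a member. For Ppara the knockout effect in RPE/choroid minus that in retina was -3.96 on the log2 scale (adjusted p = 6.97e-10). For Rgr, a retinal G protein-coupled receptor of the pigment epithelium, it was -1.67 (adjusted p = 0.00976). For Rpe65 it was -1.61 (adjusted p = 0.00565). Rgr stood at 21.2, 11.9 and 13.5 FPKM in knockout retina and at 6.06, 4.83 and 5.97 FPKM in wild type. Its call in retina was lost without any 1 of the wild-type libraries (adjusted p from 0.0758 to 0.127).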

How the results depend on the processing

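The count of members called was 0 in knockout against wild-type retina under each alternative run. Between knock-in and knockout retina it was 1 and became 2 with a sex term (calls over all genes went from 185 to 289). It was 0 with limma at either pseudocount, where calls over all genes were 20. With only the 2 groups fitted it was 0 (160 over all genes). When a library was left out it was 0 to 1 (103 to 202 over all genes). In RPE/choroid, DESeq2 gave 1 in place of 0 for the knockout against wild type (over all genes 529 in place of 73) and 1 for the knock-in against the knockout (309 in place of 70), which was also 1 with only the 2 groups fitted (198). The difference of the knockout effects between tissues gave 1 with DESeq2 (over all genes 243 in place of 22) and 0 to 1 with a library left out (9 to 337, the highest without RPE/choroid wild-type library 2). The cause was not tested. No pairing by replicate number is stated. The deviations of same-numbered libraries correlated from -0.50 to 0.28 in retina and from -0.17 to 0.14 in RPE/choroid. For different-numbered libraries the ranges were -0.44 to 0.53 and -0.27 to 0.24. Such ranges within a tissue do not settle whether libraries were paired, and pairing of retina with RPE/choroid was not tested. With the number as a replicate block the members called stayed at 1 for knock-in against knockout retina and at 31 for the tissues, while calls over all genes went from 185 to 271 in the former, and in RPE/choroid from 73 to 28 for knockout against wild type, 70 to 36 for knock-in against knockout and 10 to 4 for knock-in against wild type. Over all genes DESeq2 called 323 and limma on log2(FPKM + 1) 29 in knockout against wild-type retina, in place of 144, and with a library left out 53 to 253. Depth limits Pdk4, Angptl4 and Acaa1b in retina, where few fragments leave wide intervals.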

Other observations

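Whether the groups of a member overlap depended on the scale. In RPE/choroid, Etfa was at 37.0, 50.1 and 51.3 FPKM in wild-type libraries 0, 1 and 2, and at 52.7, 60.2 and 58.0 fragments per 1000000 fragments of the library. In knockout it was at 38.3, 46.2 and 52.4 FPKM, and at 57.6, 58.5 and 58.0 on the other scale. All knockout libraries of RPE/choroid lay below all wild-type libraries for 0 members in FPKM, and for 4 in fragments per library depth, Acaa1a, Acads, Etfb and Fabp3 (9.29% of all genes). They lay above for the same 5 members on both scales, joined by Slc27a1 on the latter (12.8% of all genes). In retina, Etfb lay above on both scales, and Acot2 lay below in fragments per library depth (10.5% of all genes). Why the scales differ was not tested.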
